A study of Mus musculus with 6 samples.

Results

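The genes described here repair broken and crosslinked DNA. They are 51 named genes of break signalling (12), end resection (6), homologous recombination (12), Fanconi crosslink repair (13) and end joining (8), taken by symbol from the 21851 genes in the files. Their RNA was compared between hematopoietic stem cells (HSCs) of mice exposed to ionizing radiation (IR, 3 libraries) and HSCs of control mice (Ctrl, 3 libraries). All mice were of wild-type (WT) genotype and background-matched, and the cells were sorted from bone marrow as lineage-negative cells with Sca-1, c-Kit and CD150 and without Flt3 and CD48. The sources used here name neither the radiation dose nor the time until sorting, the age of the mice or the number of mice behind a library. P-values therefore measure only the spread between libraries, which may be technical.

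A double-strand break is recognised by the Mre11-Rad50-Nbs1 complex and the kinase ATM, while single-stranded DNA activates ATR. The kinases mark the surrounding chromatin, recruit ubiquitin ligases and halt the cell cycle through the checkpoint kinases Chk1 and Chk2. The ends are then either rejoined directly by the Ku and DNA-PK machinery, or resected and copied from the sister chromatid by homologous recombination, which is used in S and G2 phase. The Fanconi proteins unhook DNA crosslinks and hand the resulting break to recombination. Quiescent HSCs are known to rely largely on end joining, and loss of Fanconi genes leads to bone marrow failure.

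These genes did not move as a block, with calls in either direction. Levels are in FPKM, the number of fragments per length of transcript and per depth of the library, and log2 fold changes are differences of log2(FPKM + 1), IR minus Ctrl. A gene was tested when it reached 1 FPKM in at least 3 libraries, and called at a Benjamini-Hochberg adjusted p under 0.05 in a limma fit over all tested genes. Of the 51 genes 47 were tested, of which 16 rose, 7 fell and 24 were not called. The 16 include Mdc1, which reached 1 FPKM in its IR libraries alone, so that the filter admitted it through the group where it is high. The share called among all 10281 tested genes was 54.7%, with 25.8% higher and 28.9% lower in IR. The called share of the repair genes, 48.9%, was thus near the background. Their median log2 fold change was 0.08, beside -0.01 over all tested genes. After quantile normalization 20 were higher and 4 lower, a split that leans further upward. Leaving out Ctrl replicate 1 or IR replicate 1 left 4 lower calls each time. No called repair gene moved by 0.5 or more on the log2 scale, as did 572 of the 5622 called genes of the whole table. The 3 IR libraries lay all above the controls in 18 of the 47 and all below in 7, and such separation held for 61.7% of all tested genes.

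**Figure D1:**
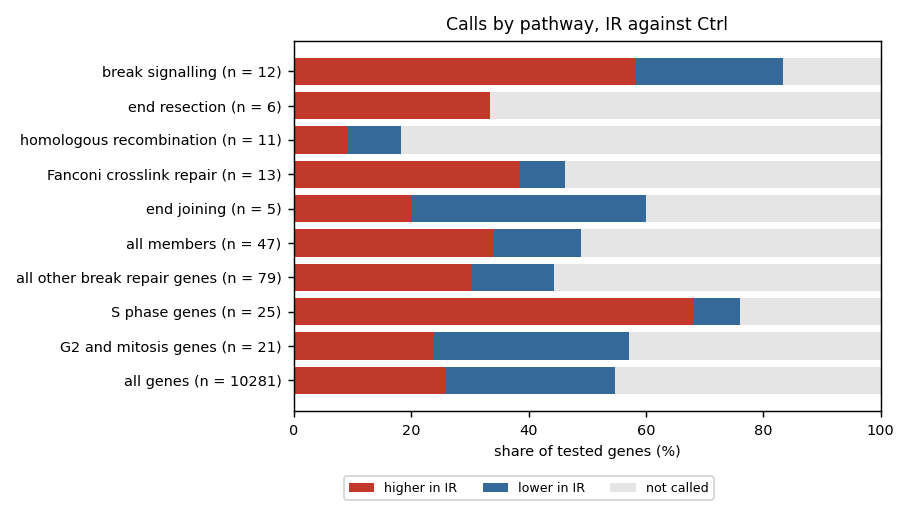
Share of tested genes called higher in IR, called lower in IR or not called at the threshold of the limma fit, for each repair pathway, for other lists and for all tested genes; n is the number of genes tested. Break signalling had 10 of 12 genes called and homologous recombination 2 of 11, beside 54.7% of all genes.

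The pathways differed in how many of their genes were called. Break signalling had 7 genes up, Mdc1 among them, and 3 down of 12 tested, end resection 2 up and none down of 6, and Fanconi repair 5 up and 1 down of 13. Homologous recombination had 1 up and 1 down of 11, and end joining 1 up and 2 down of 5. Differences between pathways were not tested. The called changes had a median size of 0.21 on the log2 scale, beside 0.23 for called genes of the whole table.

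Stem cell markers of the sorted cells are given first, with cell cycle and lineage genes after them. Of 10 stem cell markers 9 reached 1 FPKM, of which 1 rose and 5 fell, and they summed to 154 to 155 FPKM in IR and 178 to 182 FPKM in Ctrl. Mecom, a stem cell transcription factor, was at 3.24 ± 0.186 FPKM in IR and 3.37 ± 0.246 FPKM in Ctrl (SD, n = 3 each). RNA of Cd48 and Flt3, whose proteins the sort excluded, stood at 352 and 65.7 FPKM in IR and 400.1 and 125 FPKM in Ctrl. The markers that the sort required differed in direction. Ly6a (Sca-1) fell, from 203 FPKM in Ctrl to 157 FPKM in IR (-0.37). Slamf1 (CD150) rose, from 3.57 FPKM in Ctrl to 5.06 FPKM in IR (0.41). Kit was not called, at 97.5 FPKM in Ctrl and 96.7 FPKM in IR. Of 25 S phase genes 17 rose and 2 fell, and their summed level was 2629 to 2678 FPKM in IR against 2447 to 2457 FPKM in Ctrl. Of 21 genes of G2 and mitosis 5 rose and 7 fell, with sums of 1337 to 1344 FPKM in IR and 1382 to 1395 FPKM in Ctrl. Their called share, 57.1%, was near the 54.7% of all tested genes (25.8% higher, 28.9% lower), and that of the S phase genes was 76%. Called shares of tested genes were 66.7% for the stem cell markers and 71.4% to 100% for the lineage lists below. The 3 S phase genes with the smallest p were the helicase subunits Mcm2, Mcm3 and Mcm5, at 0.25, 0.21 and 0.22 on the log2 scale. In G2 and mitosis they were Cenpa at -0.33, Cdc20 at -0.18 and Ccnb2 at -0.17. Marker sums of erythroid (7 genes, 82.4 to 87.3 FPKM in IR, 57.8 to 64.7 in Ctrl), megakaryocytic (7 genes, 159 to 174 in IR, 104 to 107 in Ctrl) and granulocytic cells (9 genes, 6067 to 6227 in IR, 5296 to 5331 in Ctrl) were higher in IR. The members of these lists differed, since 4 erythroid genes rose and 2 globin genes, Hbb-bs and Hba-a1, fell, with Car1 making up most of the erythroid sum in IR (48.0 ± 2.93 FPKM, against 19.9 ± 0.647 FPKM in Ctrl). Of the megakaryocytic genes 5 rose and none fell, and of the granulocytic genes 4 rose and 5 fell. The 5 include Ltf, which reached 1 FPKM in its Ctrl libraries alone. Marker sums of monocytic cells (6 genes, all lower, 571 to 575 in IR, 719 to 725 in Ctrl) and B cells (6 genes, 2 of them tested, 55.6 to 56.3 in IR, 71.0 to 77.9 in Ctrl) were lower. The B cell sum follows Cd79b (log2 fold change -0.45), while Cd79a rose (0.26). The 6 T and NK markers, nearly all of it Nkg7, summed to 647 to 655 FPKM in IR and 528 to 552 FPKM in Ctrl, with Cd3g at 0 in every library. Klrb1c and Cd4 were lower in IR, but Cd4 reached 1 FPKM in its Ctrl libraries alone. The filter thus admitted Cd4, like Ltf, through the group where it is high. Endothelial and stromal markers summed to under 3 FPKM. The name HSC is that of the labels and the sort, and these levels do not all go with it. Cd48 and Flt3 RNA stood above Slamf1 RNA in both groups. Granulocytic markers summed to far more than stem cell markers, with Mpo alone at 2665 FPKM in IR and 2253 FPKM in Ctrl. Of the stem cell markers only Fgd5 stayed under 1 FPKM in every library. Which cells carried this RNA was not tested. The part of cell cycle and cell mixture in the repair genes' changes was not tested, and in these bulk samples fewer cells of a type and less RNA per cell cannot be told apart.

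Promoter sequences are shown because E2F factors, which drive genes of S phase, are known regulators of many repair genes. Windows from 250 bases before to 50 bases after a RefSeq start site (GRCm38.p6) were found for 41 of the 51 genes, 45 windows in all. The E2F letters TTTGGCGC, TTTCGCGC and TTTCCCGC were looked for on either strand. Only these exact letters were counted, so a window without a match may still hold another form of the site. A match stood in 9 of the 45 windows (20%), in 3.69% of the windows of all tested genes and in 1.84% of all windows. The 45 include 5 windows of 4 genes that were not tested, and Rad51c holds a match in more than 1 window. The CHR letters TTTGAA and TTCGAA, known from genes of G2 and mitosis, stood in 6 of the 45 windows (13.3%) and in 14.2% of those of tested genes. Genes with an E2F match were Chek2, Mdc1 and Topbp1 among those that rose, Xrcc6 among those that fell, Brca2, Fancg and Rad51c among those not called, and Bard1, which was not tested. Among genes with a window, a match stood in 3 of 10 that rose, 1 of 7 that fell, 3 of 20 not called and 1 of 4 not tested. Only 10 of the 16 genes that rose had a window, so coverage was uneven and the shares were not compared. Stretches of 100 bases upstream of the start site, placed so as to hold the match, follow for 3 genes that rose, 1 not called and 1 that fell, 5′ to 3′ on GRCm38.p6, with the E2F match in capitals. The stretch covers bases -198 to -99 from the start site in Chek2, -175 to -76 in Topbp1, -214 to -115 in Brca2 and -100 to -1 in Mdc1 and Xrcc6. GCGGGAAA and GCGCGAAA are TTTCCCGC and TTTCGCGC read on the other strand.
Chek2 (chr5:110839785-110839884, plus strand): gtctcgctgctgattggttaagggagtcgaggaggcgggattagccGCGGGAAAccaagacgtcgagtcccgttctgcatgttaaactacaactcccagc
Topbp1 (chr9:103305152-103305251, plus strand): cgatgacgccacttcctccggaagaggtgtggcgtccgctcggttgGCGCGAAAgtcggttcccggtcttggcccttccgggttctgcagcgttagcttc
Mdc1 (chr17:35841398-35841497, plus strand): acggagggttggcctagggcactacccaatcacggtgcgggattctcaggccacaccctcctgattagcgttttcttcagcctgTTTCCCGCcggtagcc
Brca2 (chr5:150522407-150522506, plus strand): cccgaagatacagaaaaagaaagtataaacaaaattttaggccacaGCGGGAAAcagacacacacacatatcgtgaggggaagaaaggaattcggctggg
Xrcc6 (chr15:82016269-82016368, plus strand): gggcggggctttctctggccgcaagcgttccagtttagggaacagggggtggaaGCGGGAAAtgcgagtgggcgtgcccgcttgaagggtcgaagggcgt

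Break signalling held the clearest rises, in the checkpoint kinases. Chek1, the effector kinase of ATR (chromosome 9, 36708482 to 36727065, GRCm38), had 18.2, 18.5 and 18.8 FPKM in IR, against 14.0, 13.9 and 14.2 FPKM in Ctrl. Chek2, the effector kinase of ATM (chromosome 5, 110839979 to 110874145), had 22.4, 22.5 and 22.5 FPKM in IR, against 18.8, 18.2 and 17.4 FPKM in Ctrl. In each the groups stood well apart, with log2 fold changes of 0.38 (SE 0.035, limma Benjamini-Hochberg adjusted p = 1.43e-05) and 0.30 (SE 0.038, adjusted p = 0.000107). Topbp1, which activates ATR, had 26.1, 28.1 and 27.2 FPKM in IR, against 23.0, 23.7 and 23.3 FPKM in Ctrl (0.21, adjusted p = 0.000844). All 3 kept their calls under each of the 15 alternative settings run.

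Neither of the kinases upstream of these was called higher, though the Atr mean in IR was 1.16 times that in Ctrl. Atm had 1.95, 1.87 and 1.94 FPKM in IR, against 2.33, 2.23 and 2.24 FPKM in Ctrl. Its log2 fold change was -0.16 (SE 0.056, limma adjusted p = 0.0336), and the call was lost when any 1 of the 6 libraries was left out (adjusted p = 0.0617 to 0.0931). Atr had 2.22, 1.77 and 2.16 FPKM in IR, against 1.71, 1.80 and 1.78 FPKM in Ctrl, and was not called at 0.14 (95% interval -0.02 to 0.30). IR replicate 2 lay within the controls, and without it Atr was called (0.21, limma adjusted p = 0.0289). Atrip, the partner of ATR, had 13.4, 13.8 and 12.6 FPKM in IR, against 15.5, 13.9 and 14.6 FPKM in Ctrl (-0.13, adjusted p = 0.0387), with IR replicate 2 only just below Ctrl replicate 2. The Atrip call was lost without Ctrl replicate 1, Ctrl replicate 3, IR replicate 1 or IR replicate 3 (adjusted p = 0.0679 to 0.143). Atrip shares 1147 exon bases on the same strand with the exonuclease gene Trex1, at 39.7, 40.5 and 41.3 FPKM in IR against 64.2, 55.4 and 58.9 FPKM in Ctrl, and reads of the pair may not be separable. Within a library Chek2 stood at 11.5 to 12.03 times the FPKM of Atm in IR, against 7.76 to 8.17 times in Ctrl.

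The chromatin arm of break signalling moved in either direction. H2afx, the histone variant phosphorylated around breaks, was the most abundant of the 51 genes, at 182, 206 and 194 FPKM in IR and 181, 175 and 174 FPKM in Ctrl. It rose by 0.13 (limma adjusted p = 0.0154), with IR replicate 1 barely above Ctrl replicate 1. Without the mean-variance trend it was not called (adjusted p = 0.0558). The ubiquitin ligases that act one after the other at breaks went apart. Rnf8, the first to arrive, had 28.1, 28.6 and 28.6 FPKM in IR, against 32.9, 31.7 and 34.1 FPKM in Ctrl (-0.20, SE 0.034, limma adjusted p = 0.00068), and it shares 1542 exon bases on the same strand with the gene model Gm28043. Rnf168, which follows it, rose by 0.12, to 13.2 ± 0.322 FPKM in IR against 12.05 ± 0.267 FPKM in Ctrl (adjusted p = 0.0222), a call lost without Ctrl replicate 2 or IR replicate 1 (0.0764 and 0.0770). Rif1, which acts with 53BP1 to restrain resection, rose by 0.17 (adjusted p = 0.012), whereas Trp53bp1 itself had 3.78, 3.53 and 3.90 FPKM in IR and 3.72, 4.01 and 3.69 FPKM in Ctrl, overlapping throughout (-0.02, interval -0.15 to 0.10). Mdc1, the adaptor that reads phosphorylated H2AX, had 1.06, 1.15 and 1.23 FPKM in IR, against 0.844, 0.710 and 0.921 FPKM in Ctrl (0.24, adjusted p = 0.0185). Mdc1 passed the filter on low values through its IR libraries alone, so its difference is tied to the filter, and its call was lost without Ctrl replicate 2 (adjusted p = 0.0732). Without IR replicate 1, 6 signalling genes were called, and Mdc1 was then under the filter and not tested.

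**Figure D2:**
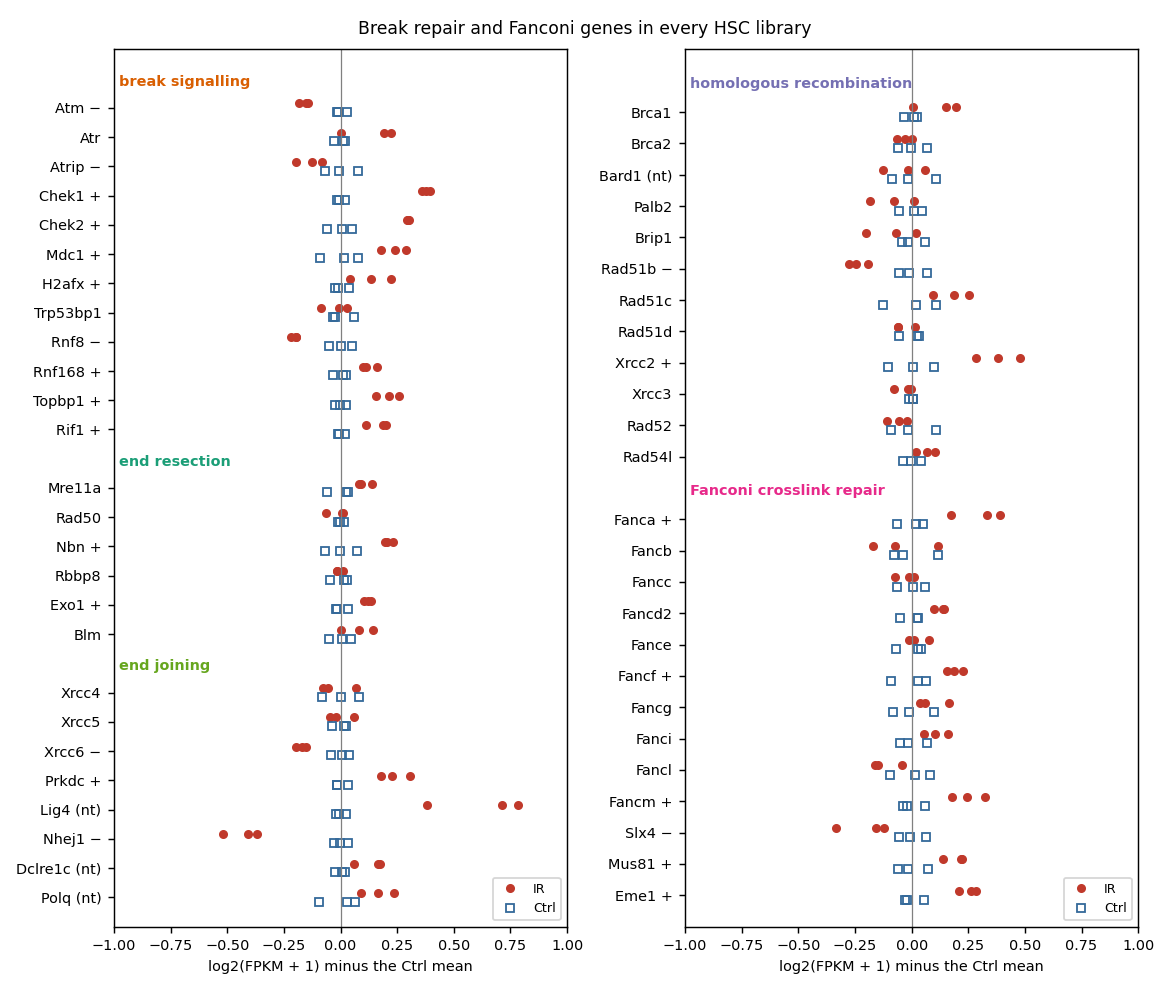
Every library of the 51 genes as log2(FPKM + 1) minus the Ctrl mean of that gene, IR as filled circles and Ctrl as open squares; + and − mark genes called higher and lower in IR, and nt genes not tested. Chek1 and Chek2 lie to the right and Nhej1 to the left of their controls, while Brca2, Rad51d, Xrcc5 and most recombination genes overlap them.

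Of the resection genes only Nbn and Exo1 were called. Nbn, the Nbs1 subunit that carries ATM to the break, had 24.4, 23.9 and 23.7 FPKM in IR, against 20.6, 19.6 and 21.7 FPKM in Ctrl (0.21, SE 0.041, limma adjusted p = 0.00158). Its partners did not clearly follow. Mre11a, the nuclease of the complex, had 10.0, 9.56 and 9.63 FPKM in IR, against 8.59, 9.22 and 9.15 FPKM in Ctrl, apart but not called (0.10, adjusted p = 0.0739). Under the 15 alternatives its change ranged from 0.075 to 0.14, and Mre11a was called after quantile normalization. Rad50, the ATPase that tethers the ends, had 18.2, 18.1 and 17.2 FPKM in IR, against 17.996, 18.2 and 17.9 FPKM in Ctrl (-0.02, interval -0.10 to 0.06). The FPKM of Nbn over that of Rad50 was 1.32 to 1.38 in IR libraries and 1.076 to 1.21 in Ctrl libraries. Exo1, the long-range resection exonuclease, had 14.4, 14.6 and 14.7 FPKM in IR, against 13.1, 13.2 and 13.6 FPKM in Ctrl, and rose by 0.12 with the groups apart (limma adjusted p = 0.0187). The Exo1 call was lost without Ctrl replicate 1, Ctrl replicate 2 or IR replicate 3 (adjusted p = 0.0556 to 0.0578), which leaves 1 call in the pathway each time. Blm, the Bloom helicase, had 2.54, 2.75 and 2.91 FPKM in IR, against 2.56, 2.65 and 2.42 FPKM in Ctrl, and the groups overlapped (0.08, interval -0.06 to 0.21). Rbbp8, which encodes the resection factor CtIP, was at 14.8 ± 0.145 FPKM in IR and 14.8 ± 0.430 FPKM in Ctrl.

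Homologous recombination genes were largely uncalled. Brca1, which promotes resection and recombination, had 3.09, 2.69 and 3.21 FPKM in IR, against 2.75, 2.71 and 2.59 FPKM in Ctrl (0.12, interval -0.03 to 0.26). IR replicate 2 lay among the controls, and without it Brca1 was called (0.17, limma adjusted p = 0.0462). Brca2, which loads the recombinase, had 3.10, 3.20 and 3.29 FPKM in IR, against 3.49, 3.27 and 3.11 FPKM in Ctrl (-0.03, interval -0.16 to 0.10). Palb2 and Brip1, partners of these proteins, had changes of -0.08 and -0.09 and were not called. Bard1, the obligate partner of Brca1, stayed under the filter, at 0.911, 0.768 and 1.01 FPKM in IR and 1.0801, 0.818 and 0.910 FPKM in Ctrl, and the groups overlapped. Brca1 stood at 3.17 to 3.504 times Bard1 in IR and 2.54 to 3.31 times in Ctrl.

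The recombinase paralogs, which assemble into complexes that assist strand exchange, did not move together. Xrcc2 (chromosome 5, 25689812 to 25705825) had 10.3, 8.90 and 9.61 FPKM in IR, against 6.58, 7.17 and 7.72 FPKM in Ctrl. Its log2 fold change of 0.38 (SE 0.065, limma adjusted p = 0.000739) was close to that of Chek1 (0.38), with every IR library above every control. Rad51b, part of the same complex as Xrcc2, had 2.55, 2.42 and 2.34 FPKM in IR, against 3.25, 2.91 and 3.02 FPKM in Ctrl (-0.24, SE 0.059, adjusted p = 0.00611). Rad51c had 1.47, 1.76 and 1.64 FPKM in IR, against 1.35, 1.49 and 1.12 FPKM in Ctrl, with IR replicate 1 inside the Ctrl range (0.18, adjusted p = 0.0775), and it was called without Ctrl replicate 2 (adjusted p = 0.0464). Rad51d and Xrcc3 were within 0.04 of no change, at 6.35 and 16.2 FPKM in IR and 6.53 and 16.6 FPKM in Ctrl. Rad54l, a motor that remodels the recombinase filament, was at 13.7 ± 0.413 FPKM in IR and 13.1 ± 0.378 FPKM in Ctrl, and Rad52, an annealing factor, at 3.42 ± 0.131 FPKM in IR and 3.62 ± 0.318 FPKM in Ctrl (SD, n = 3 each). Neither was called.

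In the Fanconi pathway, rises were found in 2 subunits of the core complex, in the anchor Fancm and in a nuclease pair. Fanca, a core subunit, had 4.72, 4.13 and 4.96 FPKM in IR, against 3.34, 3.60 and 3.69 FPKM in Ctrl (0.30, SE 0.067, limma adjusted p = 0.00348). Fancf, an adaptor of the core, had 14.9, 15.4 and 14.6 FPKM in IR, against 13.6, 12.1 and 13.3 FPKM in Ctrl (0.19, adjusted p = 0.00696). Fancm, the translocase that anchors the complex to DNA, had 1.87, 1.74 and 2.04 FPKM in IR, against 1.36, 1.39 and 1.52 FPKM in Ctrl (0.25, adjusted p = 0.00918). In all 3 genes every IR library stood above every Ctrl library. The other core genes Fancb, Fancc, Fance and Fancg had changes of -0.04, -0.02, 0.02 and 0.09 and were not called. Fancl, the ubiquitin ligase of the core, was at 20.1 ± 0.971 FPKM in IR and 21.9 ± 1.39 FPKM in Ctrl (-0.12, limma adjusted p = 0.0741), and passed the threshold without Ctrl replicate 3 (0.0187) or IR replicate 2 (0.0337).

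Neither target of the core complex was called. Fancd2, which is ubiquitinated at crosslinks, had 5.60, 5.39 and 5.59 FPKM in IR, against 5.07, 5.10 and 4.77 FPKM in Ctrl. The groups did not overlap, and its change of 0.13 missed the threshold (limma adjusted p = 0.0502). It was called under 5 alternatives, with adjusted p between 0.0204 without the mean-variance trend and 0.0498 with a filter of 5 FPKM. Fanci, its partner, had 7.05, 7.37 and 6.77 FPKM in IR, against 6.41, 6.22 and 6.86 FPKM in Ctrl, with IR replicate 3 below Ctrl replicate 3 (0.11, adjusted p = 0.111). The FPKM of Fancd2 over Fanci was 0.732 to 0.825 in IR and 0.696 to 0.820 in Ctrl, overlapping.

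The nuclease partners Eme1 and Mus81, which cut branched DNA, rose side by side. Eme1 (chromosome 11, 94644996 to 94653964) had 13.1, 12.6 and 13.4 FPKM in IR, against 10.6, 10.6 and 11.2 FPKM in Ctrl (0.25, SE 0.043, limma adjusted p = 0.000729). Mus81 had 12.3, 13.1 and 13.1 FPKM in IR, against 11.0, 11.8 and 10.6 FPKM in Ctrl (0.19, adjusted p = 0.00631). Their ratio, Eme1 over Mus81, was 0.962 to 1.07 in IR and 0.904 to 1.06 in Ctrl. Eme1 shares 221 exon bases on the opposite strand with Lrrc59, at 174, 172 and 174 FPKM in IR and 144, 137 and 137 FPKM in Ctrl, and the strand setting of the authors' quantification is not given. Slx4, the scaffold on which these nucleases gather, had 1.30, 1.60 and 1.67 FPKM in IR, against 2.03, 1.79 and 1.88 FPKM in Ctrl (-0.20, adjusted p = 0.0373). The Slx4 call was lost without Ctrl replicate 1, Ctrl replicate 3, IR replicate 1 or IR replicate 2 (adjusted p = 0.0501 to 0.137).

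**Figure D3:**
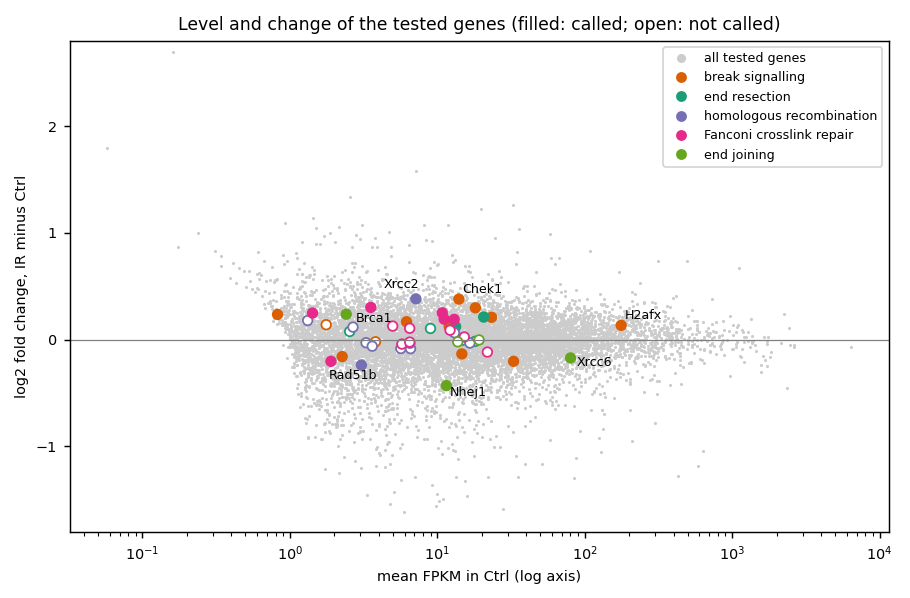
Mean FPKM in Ctrl (log axis) against the log2 fold change, IR minus Ctrl, for all 10281 tested genes in grey and the 47 tested repair genes in the colour of their pathway, filled where called and open where not. The repair genes lie between -0.43 (Nhej1) and 0.38 (Xrcc2), inside the cloud of all genes.

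End joining held the largest fall. Nhej1, which encodes the XLF factor that bridges the ends (chromosome 1, 74967139 to 75125200), had 7.74, 8.68 and 8.44 FPKM in IR, against 11.5, 11.3 and 11.8 FPKM in Ctrl. The groups were far apart, with a ratio of means of 0.719 and a log2 fold change of -0.43 (SE 0.049, limma adjusted p = 5.30e-05), kept under every alternative run. Xrcc4, the partner of XLF and of ligase IV, had 12.96, 14.5 and 13.2 FPKM in IR, against 14.6, 12.9 and 13.8 FPKM in Ctrl (-0.02, interval -0.14 to 0.10). The FPKM of Nhej1 over Xrcc4 was 0.598 to 0.640 in IR and 0.789 to 0.872 in Ctrl.

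The subunits of Ku, the ring that first binds the ends, differed. Xrcc6, which encodes Ku70 (chromosome 15, 81987835 to 82040085), had 71.0, 69.8 and 72.1 FPKM in IR, against 80.4, 82.3 and 77.7 FPKM in Ctrl (-0.17, SE 0.029, limma adjusted p = 0.00064). Xrcc5, which encodes Ku80, had 18.5, 20.01 and 18.9 FPKM in IR, against 18.7, 19.5 and 19.4 FPKM in Ctrl, overlapping throughout (-0.004, interval -0.09 to 0.08). Per length of transcript, Xrcc6 RNA stood at 3.49 to 3.83 times Xrcc5 RNA in IR and 4.002 to 4.31 times in Ctrl. Prkdc, the catalytic subunit of DNA-PK that Ku recruits, had 2.99, 2.86 and 3.22 FPKM in IR, against 2.37, 2.37 and 2.49 FPKM in Ctrl (0.24, SE 0.058, adjusted p = 0.00603), every IR library above every control.

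The largest ratio in the whole set was that of Lig4, the ligase that seals the ends (chromosome 8, 9969049 to 9977686). It had 1.252, 1.15 and 0.705 FPKM in IR, against 0.334, 0.304 and 0.294 FPKM in Ctrl, a ratio of means of 3.33. All IR libraries lay above the controls, but IR replicate 3 was well below the other IR libraries. Only 2 libraries reached 1 FPKM, so Lig4 was not tested. Without a filter its log2(FPKM + 1) change was 0.62 (limma adjusted p = 0.00272). At the depth estimated from the low values, these levels correspond to about 32 to 99 fragments per library in IR and 13 to 25 in Ctrl, depending on the transcript counted, so counting error is large. GENCODE M21 places no exon of another gene over Lig4. Dclre1c, the hairpin-opening nuclease Artemis, was at 1.07, 0.917 and 1.076 FPKM in IR and 0.810, 0.865 and 0.853 FPKM in Ctrl. Polq, the polymerase of the alternative end-joining route, was at 0.915, 0.820 and 1.01 FPKM in IR and 0.788, 0.602 and 0.743 FPKM in Ctrl. Neither was tested with the filter of 1 FPKM. Without a filter neither passed the threshold, with changes of 0.13 and 0.16 (adjusted p = 0.0576 and 0.0612), although the groups did not overlap.

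**Figure D4:**
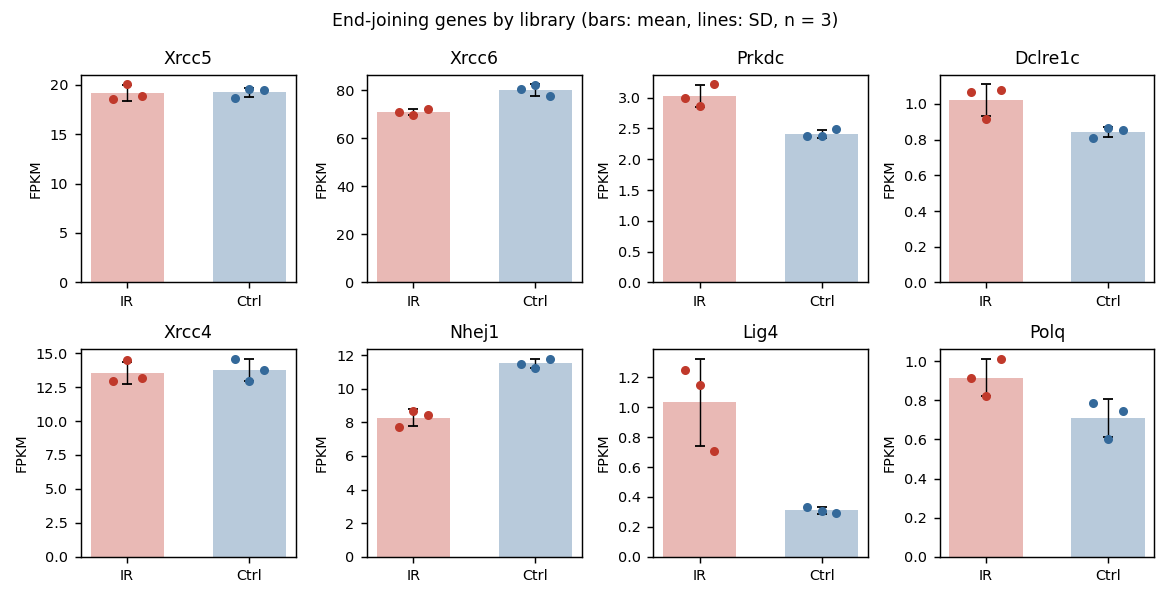
FPKM of the 8 end-joining genes in each library (points), with the mean (bar) and SD (line) of IR and Ctrl, n = 3 each, on axes of their own. Xrcc6 and Nhej1 were lower in IR, Prkdc higher and Xrcc5 and Xrcc4 overlapping, and Lig4, Dclre1c and Polq, near or under 1 FPKM, were not tested.

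Other genes of the same pathways, 81 in all, were read from the same fit. Of the 79 tested 24 rose and 11 fell, beside 25.8% and 28.9% of all genes, with a median log2 fold change of 0.04. Among checkpoint clamp genes and mediators 4 rose and 3 fell of 23. Brcc3, a deubiquitinase of the Brca1-A complex, rose by 0.24, while the acetyltransferase Kat5, which acetylates ATM, and Etaa1, an activator of ATR, had log2 fold changes of -0.28 and -0.16.

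Among genes of resection, recombination and junction processing 10 rose and 5 fell of 33. Recql4, a helicase of replication and repair, had the largest change, at 2.59 ± 0.0664 FPKM in IR and 1.43 ± 0.176 FPKM in Ctrl (0.56, limma adjusted p = 7.7e-05). Mcm8, a helicase that acts in recombination, was at 12.03 ± 0.666 FPKM in IR and 8.38 ± 0.628 FPKM in Ctrl (0.47), and the helicase gene Recql5 had a change of -0.37. Fanconi partners had 4 up and 2 down of 12, among them Ube2t, the ubiquitin-conjugating enzyme that serves the Fancl ligase, at 0.24, and Usp1, the enzyme that removes that ubiquitin, at 0.11. The ubiquitin ligase gene Rfwd3 rose by 0.17. Among end-joining and strand-break partners 6 rose and 1 fell of 11: Lig3, a ligase of the alternative route, rose by 0.37, Tdp2, which removes trapped topoisomerase, by 0.15, and Aptx, which cleans stalled ligation ends, had a change of -0.35.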

How the data were processed

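RNA of sorted mouse HSCs was measured in 6 libraries (3 IR, 3 Ctrl), made with a stranded kit for messenger RNA, per the labels' protocols. Per the submitters' processing notes, fastp, HISAT2 and StringTie were used on GRCm38 (mm10), and versions, settings and annotation are not stated there. The authors deposited 1 FPKM value per gene symbol and library. The headers name only the library, and the unit is read from the values and from the use of StringTie. Libraries summed to 486030 to 490700. Entries with a calendar date for a symbol (27) were left out.

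Depth was read from low values of genes with 1 transcript in GENCODE M21. Their FPKM times length gathered at multiples of a step equal to 14400000 to 16300000 fragments per library. Of 446 to 458 values per library, 121 to 126 (26.9% to 28.1%) lay within 0.01 of a whole multiple. At other steps the median was 7 values. These were too few to recover reads. Same-group libraries differed by 1.29 to 1.65 times what counting alone gives (median chi-square against expectation), so none was treated as a second deposit of another, which does not show that they are separate animals.

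Log2(FPKM + 1) was fitted with limma 3.58.1 in R 4.3.3 (empirical Bayes with trend, 2-sided, all 6 libraries, no block), with Benjamini-Hochberg adjustment over 10281 genes, and the code was tested on simulated data. This scale understates changes of low genes. The members, lists and tests were chosen with earlier results of these data known. Values per library are given for the lead genes Atm, Atr, Chek1, Chek2, Trp53bp1, Brca1, Brca2, Fancd2, Xrcc5, Xrcc6, Prkdc and Polq and for the 4 smallest p of each pathway. Other lists give the 3 smallest p. Further genes shown by library were chosen after their values were seen, for their place in a complex or near the threshold. Of the 51 genes 24 share exon bases with another GENCODE M21 gene, 22 of them on the opposite strand and 3 on the same strand, and such values are uncertain. Alternatives covered pseudocounts of 0.1 and 5, no filter, a filter of 5 FPKM, scaling by trimmed means (computed without weights), TPM or quantiles, no trend, a replicate block and leaving out each library.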

Additional observations from a re-analysis of the deposited data

How the results depend on the processing

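Of the 23 called repair genes 16 kept direction and call under every alternative in which they were tested (12 under all 15, while Rad51b, Fanca, Fancm and Prkdc were not tested with a filter of 5 FPKM). The other 7 (Atm, Atrip, Slx4, Mdc1, Rnf168, Exo1 and H2afx) lost the call under at least 1, and none changed sign. The median log2 change of the tested genes, 0.08 in the report, was 0.094 with a pseudocount of 0.1, 0.050 with a pseudocount of 5, 0.088 without a filter, 0.064 with a filter of 5 FPKM, 0.0941 after rescaling to TPM and 0.12 after quantile normalization, and 0.043 to 0.081 when 1 library was left out. Lower calls numbered 4 with a filter of 5 FPKM and 4 after quantile normalization, and 4 to 6 when 1 library was left out. Recombination had 1 call with a filter of 5 FPKM, which removes low genes. When 1 library was left out, resection had 1 to 2 calls and break signalling 6 to 9, with Mdc1 under the filter and untested whenever an IR library was left out. The cause of these shifts was not tested.

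Among genes not called, 9 changed sign under some alternative. By trimmed-mean scaling Rbbp8 was at 0.0022 and Xrcc5 at 0.0049. By quantile normalization Trp53bp1 was at 0.00069, Rbbp8 at 0.014, Brca2 at 0.0031 and Xrcc5 at 0.011. Without 1 library the log2 changes ranged from -0.047 to 0.011 for Trp53bp1, -0.030 to 0.0072 for Rad50, -0.029 to 0.0081 for Rbbp8, -0.061 to 0.0028 for Brca2, -0.12 to 0.022 for Fancb, -0.057 to 0.0051 for Fancc, -0.010 to 0.045 for Fance, -0.067 to 0.018 for Xrcc4 and -0.035 to 0.018 for Xrcc5.

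With the replicate number as a block, 16 repair genes were higher and 5 lower. Deviations of same-numbered libraries correlated at 0.01, -0.03 and -0.05, so the numbers were not taken as pairs. Depth limits genes near 1 FPKM, such as Lig4, Polq, Dclre1c and Bard1.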
